A study of Mus musculus with 38 samples.

Results

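Peaks of accessible chromatin nearest to nutrient transporter genes were examined in mouse CD8+ T cells. A peak was a member where the nearest autosomal protein-coding gene body of the mm10 annotation, within 100000 bp, belonged to the Slc1a, Slc2a, Slc3a, Slc7a, Slc16a, Slc38a or Slc43a family. The rule found 285 of 73610 peaks at 55 genes in the table of endogenous tumour cells and 572 of 169323 peaks at 61 genes in the table of OT-1 and naive cells. The families held 62 annotated genes: 12 of Slc2a, 7 of Slc1a, 2 of Slc3a, 15 of Slc7a, 10 of Slc38a, 3 of Slc43a and 13 of Slc16a. Slc7a9 had no peak in either table. Slc7a6os carries the family prefix, encodes no transporter and shares its peak with Prmt7. Tests covered the 276 and 312 member peaks with a mean of 10 or more normalized reads, at 55 and 56 genes, and 9 and 260 member peaks lay below that minimum.

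The assay was ATAC-seq, in which the transposase Tn5 cuts open DNA, and values are reads in a peak divided by a size factor of the library. For every library the labels give the strain as C57BL/6J and the genotype as wild-type, OT-1 libraries included, from young (10-12 weeks) or aged (64-68 weeks) animals. Endogenous CD8+ cells from B16-OVA melanoma, a mouse melanoma line that expresses ovalbumin, were taken at day 15 and sorted into 3 subsets. These were progenitor exhausted Tprog (Slamf6+ Tim-3-, 4 young and 3 aged libraries), terminally exhausted Tterm (Slamf6- Tim-3+, 5 young and 3 aged) and age-associated dysfunctional Tadys (Slamf6- Tim-3-, 2 aged). The other table held OT-1 cells, whose transgenic receptor recognises ovalbumin, from the tumours as Tprog (2 young, 2 aged) and Tterm (7 young, 6 aged), and naive CD8+ cells of the spleen (2 young, 2 aged). The labels do not say which hosts the OT-1 cells were in. Each library came from a pool of sorted cells, and it is not given whether libraries of a group are biological or technical replicates, so the p-values below cover only the variation seen among them, which may be technical.

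Cells take up sugars, amino acids and monocarboxylates through membrane carriers of the solute carrier superfamily. The Slc2a family moves glucose and other sugars, most Slc16a members with a known role move lactate, pyruvate and related acids, and the remaining families here mostly move amino acids, with Slc3a members acting as heavy chains that bring Slc7a light chains to the cell surface. T cells are known to raise glucose and amino acid uptake when they are activated. Accessibility near a gene is not its expression, and the nearest gene body need not be the gene that a distal element serves.

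RefSeq promoter windows (GRCm38.p6, from 250 bases before to 50 after an annotated start) were found for 47 of the 62 genes. Windows are shown of 4 genes whose start lay inside a peak of both tables and whose peak at that end changed in a comparison described here. They were picked after the values were seen. Slc2a1 encodes the glucose carrier GLUT1, Slc7a1 a carrier of arginine and lysine, Slc43a1 a carrier of branched-chain amino acids, and Slc16a10 a carrier of aromatic amino acids. Each sequence runs 5′ to 3′ on the strand of its gene, and capitals mark motif matches.
Slc2a1, chr4:119108495-119108794, plus strand: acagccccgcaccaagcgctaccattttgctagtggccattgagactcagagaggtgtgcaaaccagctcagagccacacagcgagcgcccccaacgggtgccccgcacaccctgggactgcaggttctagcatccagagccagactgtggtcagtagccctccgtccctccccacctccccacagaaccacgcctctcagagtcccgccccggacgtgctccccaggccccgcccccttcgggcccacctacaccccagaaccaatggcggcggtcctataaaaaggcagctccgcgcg
Slc7a1, chr5:148399855-148400154, minus strand: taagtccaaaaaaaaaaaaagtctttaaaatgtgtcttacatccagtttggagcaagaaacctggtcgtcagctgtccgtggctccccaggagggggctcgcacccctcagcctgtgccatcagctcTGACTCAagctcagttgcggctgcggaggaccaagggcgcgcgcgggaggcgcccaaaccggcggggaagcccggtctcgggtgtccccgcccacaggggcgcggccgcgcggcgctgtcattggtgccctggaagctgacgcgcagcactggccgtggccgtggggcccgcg
Slc43a1, chr2:84840073-84840372, plus strand: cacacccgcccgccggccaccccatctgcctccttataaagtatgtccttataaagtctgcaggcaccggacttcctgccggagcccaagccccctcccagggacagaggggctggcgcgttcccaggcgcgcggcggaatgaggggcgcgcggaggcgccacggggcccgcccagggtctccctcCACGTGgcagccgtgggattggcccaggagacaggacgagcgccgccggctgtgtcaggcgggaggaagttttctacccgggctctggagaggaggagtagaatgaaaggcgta
Slc16a10, chr10:40142205-40142504, minus strand: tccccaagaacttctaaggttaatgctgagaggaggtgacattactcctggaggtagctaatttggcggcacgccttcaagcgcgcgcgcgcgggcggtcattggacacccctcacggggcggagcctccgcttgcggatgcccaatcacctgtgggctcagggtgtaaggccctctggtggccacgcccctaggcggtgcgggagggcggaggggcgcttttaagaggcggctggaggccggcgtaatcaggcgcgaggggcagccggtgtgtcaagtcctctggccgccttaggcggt

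The letters searched, on both strands, were TGANTCA (AP-1), CACGTG (E-box), TGATGNAA (ATF4 and CEBP), TGTGGTTT (Runx), CTTTGAA (TCF and LEF) and TGACGTCA (CRE). The Slc7a1 window held an AP-1 match and the Slc43a1 window an E-box. The other two windows held none of these letters. AP-1 letters occurred in 5 of 58 member windows (8.62%) and in 7.81% of 32851 promoter windows, and E-box letters in 7 (12.1%) and in 7.15%. ATF4 and CEBP letters were found in 4 member windows (6.9%, against 3.97% of all), TCF and LEF letters in 4 (6.9%, against 5.14%), CRE letters in 1 (1.72%, against 1.79%) and Runx letters in 0 (against 1.78%).

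Libraries held 4.64 to 87.6 megareads in peaks in the endogenous table and 6.80 to 27.7 in the other, of which 0.316 to 0.370% fell in member peaks. In the endogenous table CD8 T cell genes had a gene-end peak for 6 of 6 markers, with library means of 819 to 1293 normalized reads. Markers of other cell types had such peaks as well: 4 of 5 CD4 and regulatory T cell genes (530 to 751), 6 of 12 myeloid genes (435 to 660), 2 of 5 NK cell genes (247 to 373), 4 of 7 melanocyte genes (180 to 284) and 3 of 8 B cell genes (64.8 to 131). The highest of the myeloid and melanocyte lists, Fcgr3 at a mean of 1144 reads and Mitf at 663, were above Lck at 569. No gene-end peak was found for Pmel, Tyr and Tyrp1 of melanocytes, Csf1r, Lyz2 and Adgre1 of myeloid cells, Ms4a1 and Pax5 of B cells, Ncr1 of NK cells and Cd4. The part of such cells in the results was not tested. In the sorted bulk cells, fewer cells with an open site and less opening per cell cannot be told apart. All endogenous libraries share the entry "batches 1 and 2", naive libraries are all of batch 3, and OT-1 libraries are of batches 4 and 5 except 5 of batch 6. The 2 aged OT-1 Tprog libraries had a correlation of 0.731 with each other. Of the OT-1 libraries, the first of them had the lowest share of reads at gene ends (35.1%) and the highest share in the 100 most open peaks (6.47%).

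In endogenous cells the mean over all member peaks ran from 215 to 226 normalized reads in young Tprog libraries, 222 to 256 in young Tterm, 226 in each aged Tprog library, 239 to 241 in aged Tterm and 210 to 229 in Tadys. These means were 0.877 to 0.956 times the mean over all peaks of the same library. In the other table it ran from 61.0 to 61.5 in young naive, 66.8 to 68.7 in aged naive, 68.3 to 68.7 in young OT-1 Tprog, 63.4 to 92.5 in young OT-1 Tterm, 47.9 to 71.0 in aged OT-1 Tprog and 68.2 to 83.4 in aged OT-1 Tterm, and these means were 0.936 to 1.07 times the mean over all peaks. Genes with no called peak in the 7 comparisons of the endogenous table included Slc2a2, Slc2a4, Slc2a5, Slc7a11, Slc7a8 and Slc1a7.

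The first question was how the transporter elements differ between terminally and progenitor exhausted cells. In young endogenous cells 33 member peaks were higher in Tterm and 37 were lower, at 30 of 55 genes, by limma with Benjamini-Hochberg adjustment. That is 25.4% of the members tested, against 25.6% of all peaks (14.3% higher, 11.3% lower). Their median log2 difference was -0.12, against -0.01 over all peaks. With every library scaled to the same total, 21 were higher and 46 lower, while the median of all peaks moved to -0.17. In aged endogenous cells 18 were higher and 14 lower, 11.6% against 12.1% of all peaks (6.75% higher, 5.37% lower). Of the calls, 52 of 70 and 17 of 32 held whichever library was left out. In the young comparison 6 myeloid marker peaks were higher and 8 lower of 32, 43.8% against the 25.6% of all peaks. Of CD8 T cell and NK cell marker peaks 26.1% and 28.6% were called. The CD4 and regulatory T cell, B cell and melanocyte lists had 23%, 22.2% and 8.33%. What the cells of these lists contribute to the result was not tested.

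**Figure D1:**
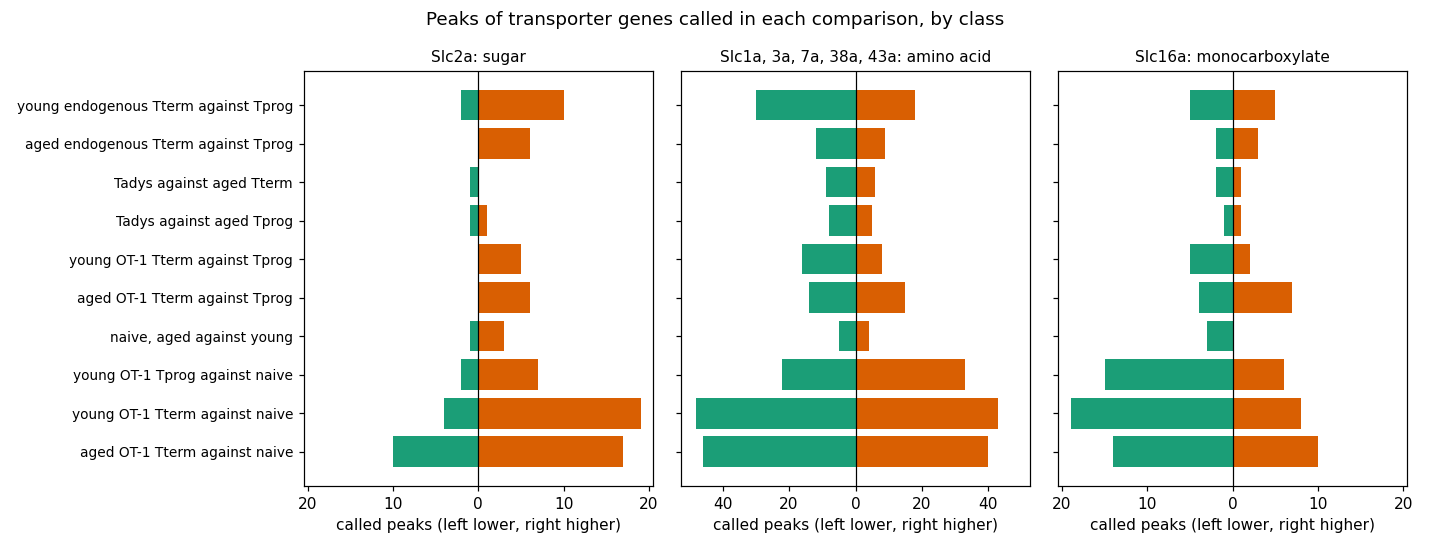
Number of member peaks called by limma at an adjusted p under 0.05 in each of 10 comparisons, for sugar carriers (Slc2a), amino acid carriers and the Slc16a family (monocarboxylate panel); bars to the right (orange) count peaks higher in the group named first and bars to the left (green) those lower. In young endogenous cells 10 sugar carrier peaks were higher and 2 lower in Tterm (6 and 3 with equal library totals), and 18 amino acid carrier peaks were higher and 30 lower (10 and 36 with equal library totals). Those called were 21.1% and 27% of these classes, against 25.6% of all peaks.

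The calls were also counted by class. Of 57 peaks of Slc2a sugar carriers, 10 were higher and 2 lower in young endogenous Tterm (6 and 3 with equal library totals, 9 and 3 by edgeR). That is 21.1% of the class against 25.6% of all peaks, and by gene 4 had peaks that were higher and 2 had peaks that were lower. In aged cells 6 were higher and 0 lower, 10.5% of the class against 12.1% of all peaks, and the 6 belonged to 2 genes, Slc2a1 and Slc2a10. Of 178 amino acid carrier peaks, 18 were higher and 30 lower in young Tterm (10 and 36 with equal library totals, 15 and 34 by edgeR), and 9 and 12 in aged Tterm. Those called were 27% of the class in young and 11.8% in aged cells. Of 41 peaks of the Slc16a family, 5 were higher and 5 lower in young Tterm (24.4%, and 5 and 7 with equal library totals), and 3 and 2 in aged Tterm (12.2%). Of the 5 higher, 3 were nearest to Slc16a10, which carries aromatic amino acids rather than monocarboxylates. These are counts over elements, several of which belong to the same gene, and the difference between classes was not tested.

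Most elements named from here on were picked for a low adjusted p in a comparison. That libraries do not overlap at them follows in part from that choice. How many of all peaks separate in this way was not counted, in endogenous or OT-1 cells. Among sugar carriers, Slc2a1 had an element within the gene at chr4:119124943-119127857 that was open in every group and more so in Tterm. Young Tprog libraries had 1475, 1616, 1382 and 1248 normalized reads, and young Tterm libraries 2102, 2998, 2596, 2237 and 2518. Aged Tprog had 1649, 1804 and 1744, aged Tterm 2391, 2382 and 2585, and Tadys 1621 and 2217. Tterm lay above Tprog in every library at both ages. Of the Tadys libraries, that at 1621 lay below every aged Tprog library and that at 2217 between aged Tprog and aged Tterm. The log2 difference between Tterm and Tprog was 0.79 ± 0.11 (SE) in young cells (limma adjusted p = 3.27e-06) and 0.50 ± 0.13 in aged cells (adjusted p = 0.0116). At the Slc2a1 promoter peak, chr4:119108157-119109738, which contains the window printed above, young Tterm held 1648 ± 172 reads (SD, n = 5) and young Tprog 1163 ± 88.8 (n = 4), a log2 difference of 0.50 ± 0.10 (limma adjusted p = 0.000585). In aged cells the difference there was 0.12 (limma adjusted p = 0.634). A distal Slc2a1 element at chr4:119089440-119090088 rose by 1.64 ± 0.39 in young (limma adjusted p = 0.00231) and 1.91 ± 0.48 in aged Tterm (adjusted p = 0.0073).

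The largest gain was at a distal element 20460 bp from Slc2a10, which encodes the sugar carrier GLUT10, at chr2:165540377-165540698, where the next gene is Trp53rka. Young Tprog libraries had 23.6, 17.5, 6.33 and 21.5 reads, and young Tterm libraries 131, 256, 155, 122 and 167. Aged Tprog had 38.4, 10.1 and 21.6, aged Tterm 92.1, 133 and 140, and Tadys 92.2 and 68.4. Every Tterm library was above every Tprog library, and Tprog libraries held few reads there. The log2 differences were 3.29 ± 0.36 in young (limma adjusted p = 9.88e-08) and 2.49 ± 0.44 in aged cells (adjusted p = 0.000253). Slc2a3, which encodes the high-affinity glucose carrier GLUT3, had 588 ± 41.3 reads at its gene end in young Tterm and 578 ± 126 in young Tprog, a log2 difference of 0.05 (limma adjusted p = 0.847) that took the other sign with equal library totals.

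Among amino acid carriers, Slc7a5, the light chain of the large neutral amino acid transporter LAT1, gained an element within the gene at chr8:121897943-121899358. Young Tprog libraries had 331, 482, 466 and 487 reads, and young Tterm 750, 1096, 985, 907 and 1168. Aged Tprog had 292, 362 and 410, aged Tterm 854, 946 and 905, and Tadys 593 and 664. At this element, picked for its difference between Tterm and Tprog, the 3 subsets did not overlap, and Tadys lay between the others. The Tterm to Tprog log2 difference was 1.15 ± 0.14 in young (limma adjusted p = 5.88e-07) and 1.36 ± 0.17 in aged cells (adjusted p = 4.13e-06). The promoter peak of Slc7a5 differed by 0.18 (limma adjusted p = 0.283), and the gene-end peak of its heavy chain Slc3a2 by 0.26 (adjusted p = 0.124).

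Other amino acid carrier elements rose in Tterm at both ages. At chr12:8519246-8519781, nearest to Slc7a15 with Rhob as the next gene, young Tprog held 50.4 ± 11.2 reads and young Tterm 174 ± 15.9, a log2 difference of 1.79 ± 0.22 (limma adjusted p = 6.19e-07), and the aged difference was 1.11 ± 0.27 (adjusted p = 0.00576). An element within Slc38a10 at chr11:120142348-120143245 rose by 0.95 ± 0.21 in young (limma adjusted p = 0.00108) and 1.48 ± 0.25 in aged Tterm (adjusted p = 0.000184). One within Slc43a2, which carries branched-chain amino acids and phenylalanine, rose from 50.2 ± 14.2 to 131 ± 36.0 reads in young Tterm, by 1.37 ± 0.26 (limma adjusted p = 0.00026). At a gene end of Slc1a1, a glutamate carrier, chr19:28914156-28915372, reads rose from 45.4 ± 8.78 to 110 ± 16.9 in young cells (1.26 ± 0.29, limma adjusted p = 0.00189) and from 31.6 ± 19.6 to 108 ± 39.0 in aged cells (1.85 ± 0.36, adjusted p = 0.000703).

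**Figure D2:**
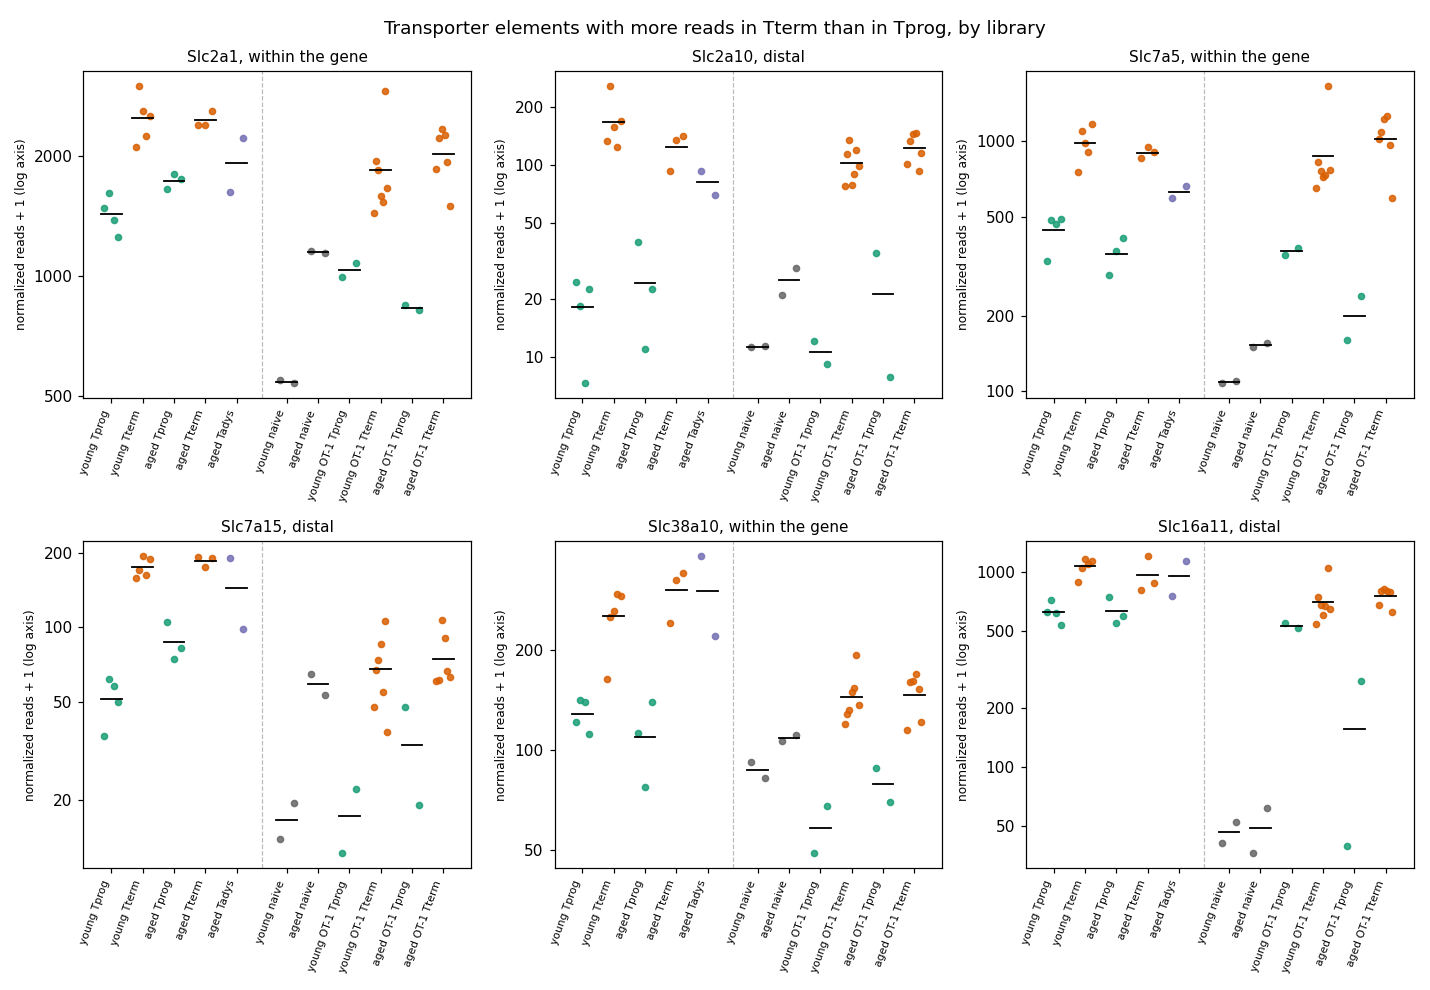
Normalized reads plus 1 per library (points, log axis) with group means (black lines) at 6 elements more open in Tterm, in endogenous cells left of the dashed line and in naive and OT-1 cells right of it (the tables were normalized apart). At the Slc7a5 element endogenous Tterm libraries held 750 to 1168 reads and endogenous Tprog libraries 292 to 487.

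The lowest adjusted p among losses in Tterm was at Slc38a1, a sodium-coupled carrier of glutamine and other neutral amino acids. Its element within the gene at chr15:96583078-96584005 had 598, 602, 702 and 590 reads in young Tprog and 165, 108, 128, 138 and 139 in young Tterm. Aged Tprog had 550, 669 and 626, aged Tterm 204, 119 and 133, and Tadys 224 and 339. No Tterm library came near a Tprog library, and both Tadys libraries lay in the gap. The log2 difference was -2.20 ± 0.17 in young (limma adjusted p = 3.93e-10) and -2.04 ± 0.21 in aged cells (adjusted p = 1.79e-07). The gene-end peak of Slc38a1, in contrast, was at 2842 ± 229 reads in young Tterm and 2473 ± 129 in young Tprog (log2 0.20, limma adjusted p = 0.108).

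Slc1a2 encodes a glutamate carrier best known from astrocytes, and its 132546 bp gene body, next to Cd44, held 10 peaks that fell in young Tterm of 14 tested, and 6 that fell in aged Tterm. None rose. The most open of those that fell at both ages, chr2:102732686-102734007, had 555, 428, 716 and 475 reads in young Tprog and 139, 105, 138, 102 and 80.6 in young Tterm. Aged Tprog had 457, 530 and 543, aged Tterm 185, 114 and 129, and Tadys 246 and 286. Tterm and Tprog did not overlap, with Tadys between them, and the log2 differences were -2.26 ± 0.19 (young, limma adjusted p = 9.59e-10) and -1.86 ± 0.23 (aged, adjusted p = 2.54e-06).

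A gene-end peak of Slc43a1 at chr2:84837708-84838504, upstream of the window printed above, fell in Tterm too. Young Tprog libraries had 106, 123, 140 and 104 reads, and young Tterm 13.1, 30.1, 37.0, 25.0 and 37.0. Aged Tprog had 92.2, 128 and 113, aged Tterm 43.1, 31.1 and 19.1, and Tadys 58.1 and 54.7. Tterm was lowest, Tprog highest and Tadys between, with log2 differences of Tterm to Tprog of -2.10 ± 0.31 in young (limma adjusted p = 9.2e-06) and -1.87 ± 0.38 in aged cells (adjusted p = 0.0011). Distal elements nearest to Slc38a2, another sodium-coupled glutamine carrier (chr15:96778031-96778954), to the glutamate carrier Slc1a3 and to Slc7a10, the light chain of a small neutral amino acid carrier, fell by 1.52, 1.59 and 1.53 on the log2 scale in young Tterm (limma adjusted p = 9.89e-05, 1.62e-07 and 7.39e-07), and by 1.64, 0.90 and 1.02 in aged Tterm (adjusted p = 0.000954, 0.00605 and 0.0034).

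In the Slc16a family, the peak at the end of Slc16a5, chr11:115461907-115463994, had 203, 253, 297 and 364 reads in young Tprog and 126, 96.0, 109, 103 and 142 in young Tterm. Aged Tprog had 238, 232 and 233, aged Tterm 56.8, 87.7 and 61.3, and Tadys 323 and 169. Tterm was below Tprog throughout, and the Tadys libraries lay on either side of aged Tprog. Differences were -1.25 ± 0.21 in young (limma adjusted p = 5.2e-05) and -1.78 ± 0.26 in aged cells (adjusted p = 2.12e-05). A distal element of Slc16a1, the lactate carrier MCT1, at chr3:104615959-104616776 fell from 159 ± 39.3 to 38.5 ± 7.99 reads in young Tterm (-2.001 ± 0.29, limma adjusted p = 5.77e-06), whereas its promoter peak differed by 0.09 (adjusted p = 0.609), with the other sign under equal library totals. In the opposite direction, an element near Slc16a11 at chr11:70198003-70199365 rose from 622 ± 74.0 to 1064 ± 109 reads in young Tterm (0.77 ± 0.14, limma adjusted p = 0.000124), and the Slc16a10 promoter peak, which contains the window printed above, rose from 475 ± 98.3 to 735 ± 60.8 (0.64 ± 0.13, adjusted p = 0.000431).

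**Figure D3:**
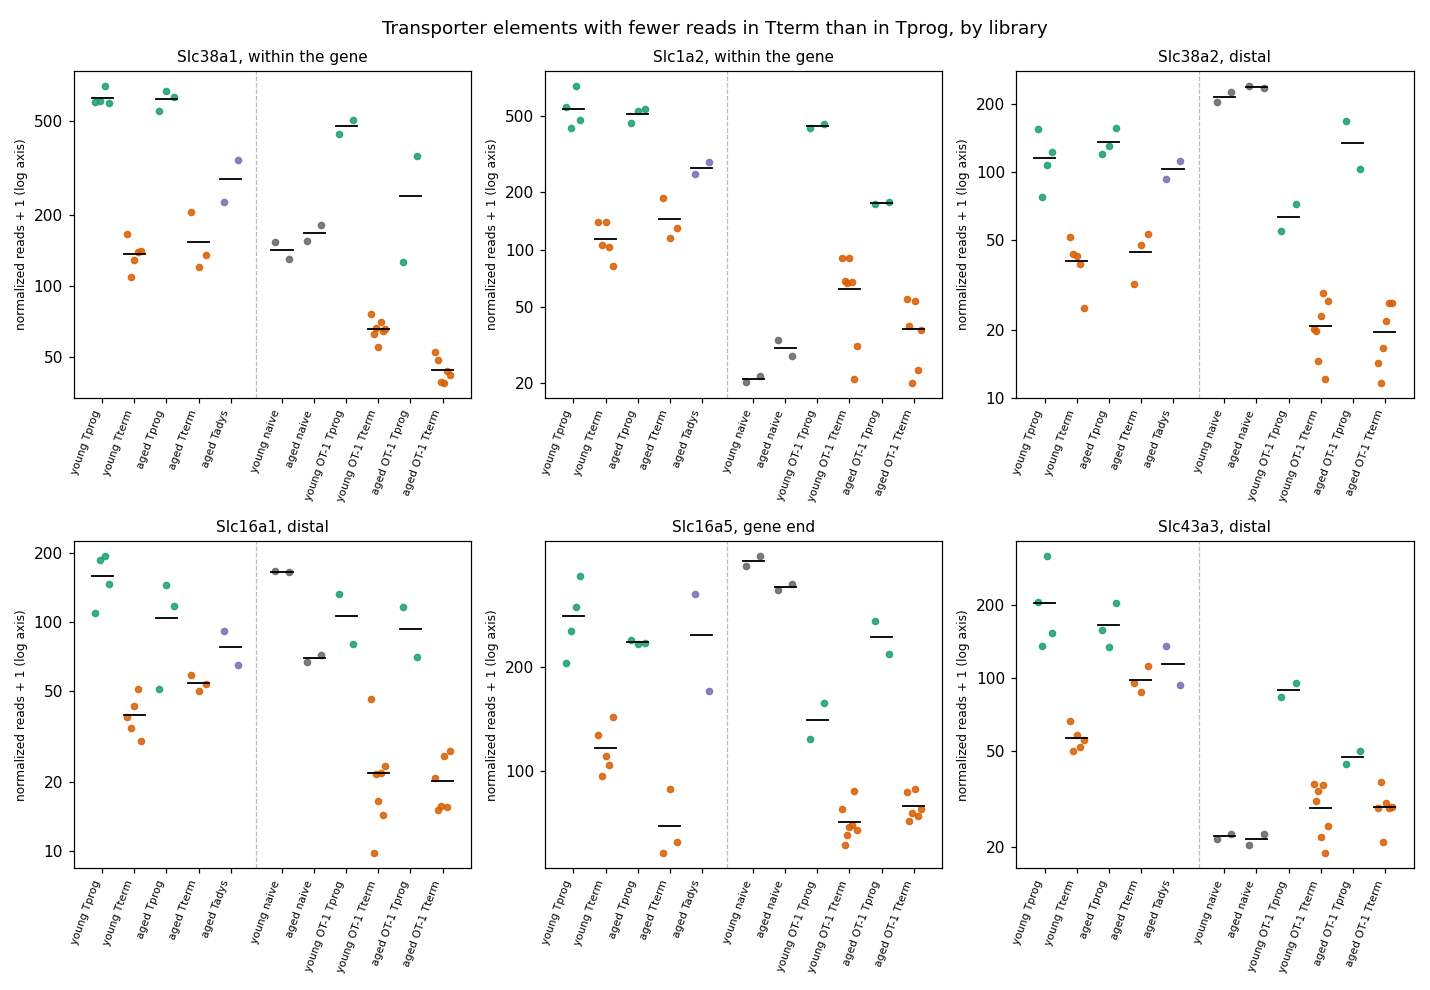
Normalized reads plus 1 per library (points, log axis) with group means (black lines) at 6 elements less open in Tterm, arranged as in the plot of elements more open in Tterm. At the Slc38a1 element endogenous Tprog libraries held 550 to 702 reads and endogenous Tterm libraries 108 to 204.

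Most promoter peaks of the carriers best known from activated T cells did not pass the test between the subsets, with Slc2a1 (above) and Slc43a1 (log2 -0.67, limma adjusted p = 0.0329, a call that not every left-out library kept) as the exceptions in young cells. Besides Slc2a3, Slc7a5, Slc3a2, Slc38a1 and Slc16a1, the gene-end peaks of Slc1a5, which carries glutamine and other neutral amino acids (log2 0.19, limma adjusted p = 0.17), of Slc38a2 (0.29, adjusted p = 0.0615) and of the lactate exporter Slc16a3 (0.06, adjusted p = 0.814, with the other sign under equal library totals) did not pass the test in young endogenous cells. Slc7a11, the cystine carrier, had no gene-end peak. Over all members 30.6% of gene-end peaks were called in young cells, against 28.5% of gene-end peaks of all genes. In aged cells these shares were 14.3% and 5.72%, the first being 7 of 49 peaks.

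OT-1 cells gave the same comparison in other libraries and other peaks. In young OT-1 cells 15 member peaks were higher and 21 lower in Tterm, 11.5% against 7.63% of all peaks (4.06% higher, 3.57% lower). These calls were at 19 of 56 genes, and 7 of the 21 lower peaks were nearest to Slc1a2 alone. Of the 36, 7 held whichever library was left out. With the replicate number as a block 22 were called in young and 20 in aged OT-1 cells. Leaving out either young Tprog library reduced the count to 13 or 12, so most of these calls rest on having both. In aged OT-1 cells 28 were higher and 18 lower, 14.7% against 14.7% of all peaks (11.3% higher, 3.39% lower). There the split turned to 18 and 29 with equal library totals and to 15 and 29 by edgeR, as the median of all peaks moved from 0.15 to -0.26. The aged count was 30 without the first aged Tprog library and 100 without the second. NK cell marker peaks were 10 higher and 0 lower of 21 in aged OT-1 Tterm (47.6%), and CD4 and regulatory T cell marker peaks 15 higher and 1 lower of 71 (22.5%). CD8 T cell marker peaks were 13 higher and 3 lower of 60 (26.7%). Of myeloid, B cell and melanocyte marker peaks 20%, 8.11% and 8.33% were called. What the cells of these lists contribute to the result was not tested. Both aged Tprog libraries are of batch 6, with a single aged Tterm library, so this comparison leans on the batch term, and within batch 6 alone 1 peak, near Slc2a10, was called.

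The leading elements went the same way in OT-1 cells. At the Slc2a10 element young OT-1 Tprog had 11.2 and 8.25 reads and young OT-1 Tterm 76.5 to 132 (median 96.8), and aged OT-1 Tprog had 33.7 and 6.89 and aged OT-1 Tterm 91.9 to 145 (median 123). Tterm exceeded Tprog in every library, by 3.21 ± 0.38 (young, limma adjusted p = 4.73e-06) and 2.92 ± 0.45 (aged, adjusted p = 9.6e-05). At the Slc38a1 element young OT-1 Tprog had 438 and 505 reads and Tterm 54.0 to 75.1 (median 64.8), and aged OT-1 Tprog had 125 and 352 and Tterm 37.7 to 51.7 (median 41.7). Tterm was again below Tprog in every library, with differences of -2.84 ± 0.28 (limma adjusted p = 4.46e-07) and -2.30 ± 0.33 (adjusted p = 4.62e-05).

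At the Slc7a5 element young OT-1 Tprog had 350 and 375 reads and Tterm 649 to 1671 (median 759), and aged OT-1 Tprog had 159 and 240 and Tterm 593 to 1260 (median 1055). The groups did not overlap at either age. The differences were 1.18 ± 0.29 in young (limma adjusted p = 0.0119, and 0.14 and 0.13 without the first or the second young Tprog library) and 2.40 ± 0.35 in aged cells (adjusted p = 5.75e-05). At the Slc1a2 element, chr2:102732731-102734183 in this table, young OT-1 Tprog had 432 and 451 reads and Tterm 19.99 to 88.8 (median 66.7), and aged OT-1 Tprog had 171 and 177 and Tterm 19.1 to 54.3 (median 37.96). Tterm was far below Tprog throughout, with differences of -2.72 ± 0.38 (limma adjusted p = 4.27e-05) and -3.07 ± 0.46 (adjusted p = 6.46e-05).

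The Slc2a1 element within the gene had 989 and 1076 reads in young OT-1 Tprog, 1440 to 2900 (median 1660) in young OT-1 Tterm, 841 and 821 in aged OT-1 Tprog and 1494 to 2336 (median 2074) in aged OT-1 Tterm. Tterm was above Tprog in every library. The test was passed in aged cells (1.32 ± 0.29, limma adjusted p = 0.00334) but not in young cells. Slc16a5 fell at its gene end by 1.01 on the log2 scale in young OT-1 Tterm (limma adjusted p = 0.00255, and 0.14 without the second Tprog library) and by 1.54 in aged OT-1 Tterm (adjusted p = 0.000171). The distal Slc16a1 element fell by 2.41 in young OT-1 Tterm (limma adjusted p = 0.000455) and by 2.11 in aged OT-1 Tterm (adjusted p = 0.0056, and 0.072 without the first Tprog library).

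The 2 tables share no library, so directions can be set side by side. Of 276 endogenous members tested, 241 had an OT-1 table peak overlapping at least 50% of the shorter of the pair. Of 67 matched members called in young endogenous cells, 34 were also called in young OT-1 cells, 50.7% against 28.5% over all peaks. All 34 had the same sign, but so did 4981 of the 4984 peaks called in both among all peaks. Taken the other way, 97.1% of the 35 called in OT-1 cells were called in endogenous cells, against 83.4% over all peaks. Signs were the same for 64 of the 67, 95.5% against 96.0% over all peaks. In aged cells 19 of 32 were called in both, 59.4% against 50.0%, 31 of 32 had the same sign (96.9% against 88.4%), and 45.2% of the 42 called in OT-1 cells were called in endogenous cells (against 37.2%).

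**Figure D4:**
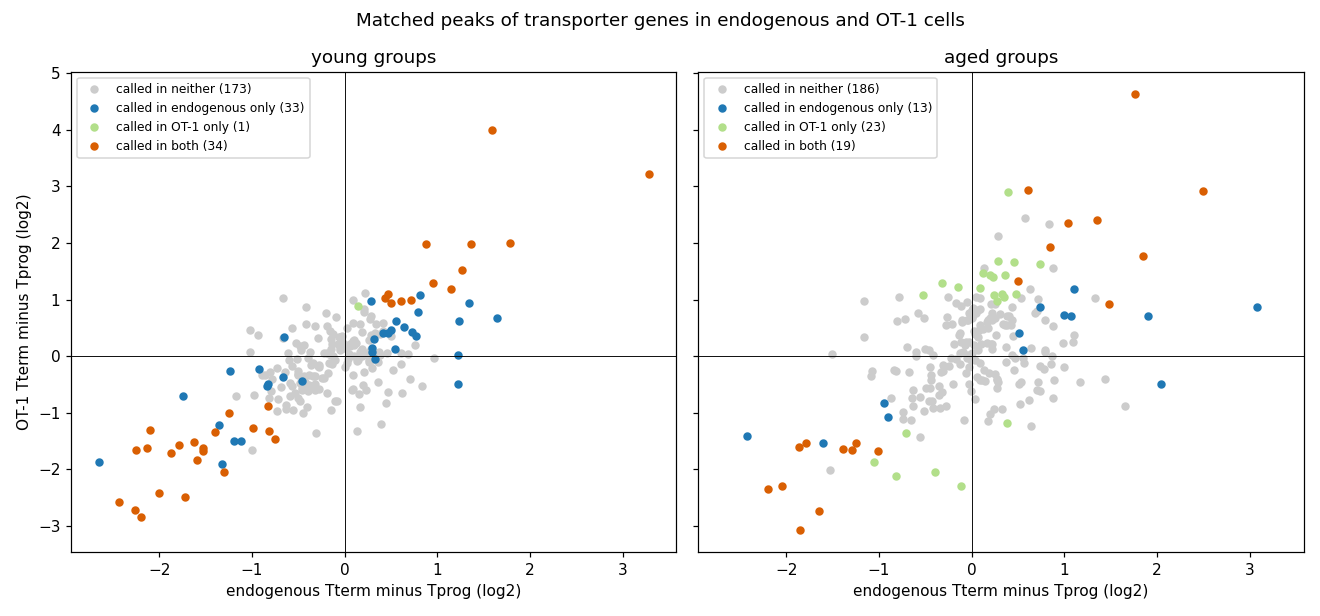
Log2 difference of Tterm and Tprog in endogenous cells (horizontal) and in OT-1 cells (vertical) for 241 matched member peaks, young groups left and aged groups right, coloured by where limma called them. The 34 young and 19 aged peaks called in both lie in the quadrants of equal sign. Among all peaks called in both, 4981 of 4984 (young) and 4123 of 4158 (aged) had equal signs.

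Against naive spleen cells the transporter elements changed widely, and here cell state, tissue and batch cannot be told apart, since all naive libraries are of batch 3 and from spleen. In young OT-1 Tprog 46 member peaks were higher than in young naive cells and 39 lower (27.2%, against 24.2% of all peaks, 15.0% higher and 9.15% lower). In young OT-1 Tterm 70 were higher and 71 lower (45.2% against 40.3%, 22.4% higher and 17.9% lower), and in aged OT-1 Tterm against aged naive cells 67 and 70 (43.9% against 47.7%, 21.4% higher and 26.3% lower). Without the first or the second young naive library the young Tprog count was 51 or 45 and the young Tterm count 79 or 78, and without the first or the second aged naive library the aged count was 68 or 89. With equal library totals young Tterm had 61 higher and 92 lower, as the median of all peaks moved from -0.06 to -0.27. Sugar carrier peaks were 19 higher and 4 lower of 67 in young OT-1 Tterm (18 and 8 with equal totals), and Slc16a peaks 8 higher and 19 lower of 48 (7 and 26). Those called were 34.3% and 56.2% of these classes, against 40.3% of all peaks.

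Elements followed different orders over the young naive, Tprog and Tterm groups. Slc7a5 rose in steps: its element had 107 and 109 reads in young naive libraries, below the 350 and 375 of Tprog and the 649 to 1671 of Tterm, and Tterm differed from naive by 2.92 ± 0.29 (limma adjusted p = 4.04e-08). The Slc2a1 element within the gene had 547 and 536 reads in young naive cells, 1.71 ± 0.24 below Tterm on the log2 scale (limma adjusted p = 5.33e-06). The Slc16a11 element had 39.8 and 51.3 reads in young naive cells, 544 and 513 in young OT-1 Tprog and 542 to 1043 (median 668) in young OT-1 Tterm, so that the tumour groups overlapped and both lay far above naive (3.52 over naive in Tprog, limma adjusted p = 1.12e-05, and 3.87 ± 0.40 in Tterm, adjusted p = 5.68e-08).

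Most Slc1a2 peaks were highest in Tprog. Of its 11 peaks tested in this table, 8 were higher and 0 lower in young OT-1 Tprog than in young naive cells (15.0% and 9.15% of all peaks). The element at chr2:102732731-102734183 had 19.3 and 20.8 reads in young naive libraries against 432 and 451 in Tprog, a log2 difference of 4.39 ± 0.46 (limma adjusted p = 3.1e-07), and that at chr2:102700914-102702053 differed by 4.06 ± 0.29 (adjusted p = 1.98e-09). In young OT-1 Tterm 7 of the 11 were lower than in Tprog (3.57% of all peaks), and 7 were higher than in naive cells (22.4% of all peaks). Levels at the first element thus stood highest in Tprog, lower in Tterm and lowest in naive cells, where a Tterm library at 19.99 reads met the naive range.

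**Figure D5:**
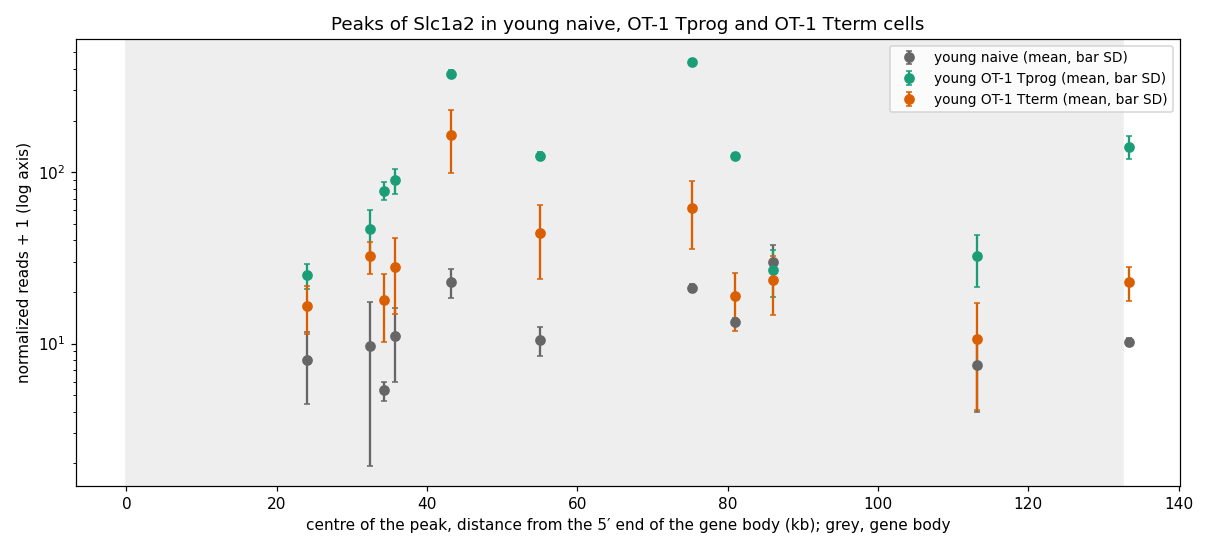
Mean normalized reads plus 1 (log axis, bars SD) at the 11 tested Slc1a2 peaks by distance of the peak centre from the 5′ end of the gene body (grey), in young naive (n = 2), young OT-1 Tprog (n = 2) and young OT-1 Tterm cells (n = 7). Tprog is the highest of the groups at most peaks, with 442 ± 14.0 reads at the most open one.

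A further set of elements was, among the young groups, most open in naive cells. The Slc16a5 gene end had 389 and 416 reads in young naive, 123 and 156 in young OT-1 Tprog and 60.2 to 86.6 (median 67.8) in young OT-1 Tterm, without overlap, and Tterm differed from naive by -2.54 ± 0.21 (limma adjusted p = 2.27e-09). The distal Slc38a2 element had 202 and 225 reads in young naive, 53.5 and 70.7 in Tprog and 11.1 to 28.1 (median 19.1) in Tterm (-3.45 ± 0.36 against naive, limma adjusted p = 7.37e-08). A gene end of Slc16a7, a monocarboxylate carrier of high affinity, fell from 161 ± 13.3 reads in young naive cells to 12.6 ± 1.13 in Tprog and 14.3 ± 4.95 in Tterm (limma adjusted p = 0.00012 and 5e-06). The Slc43a1 promoter peak, which contains the printed window, fell from 223 ± 4.59 to 106 ± 12.9 and 81.6 ± 13.6 (limma adjusted p = 0.0206 and 0.000179).

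The cationic amino acid carrier Slc7a1 had elements more open in OT-1 tumour cells than in naive spleen cells. Of 15 peaks tested, 6 were higher in young OT-1 Tprog and 7 in young OT-1 Tterm, and 0 and 1 lower. Over all peaks 15.0% were higher and 9.15% lower in Tprog, and 22.4% and 17.9% in Tterm. Its element within the gene at chr5:148372998-148373967 had 46.3 and 41.7 reads in young naive cells, 393 and 387 in Tprog and 152 to 286 (median 238) in Tterm, so that naive lay well below both. The differences from naive were 3.12 ± 0.40 (limma adjusted p = 4.01e-06) and 2.59 ± 0.33 (adjusted p = 1.01e-06). The promoter peak of Slc7a1, which contains the printed window, differed from naive by 1.14 ± 0.34 in Tprog (limma adjusted p = 0.0172) and 1.45 ± 0.28 in Tterm (adjusted p = 0.000229). Slc38a1 at its gene end was higher than naive by 1.23 in Tprog (limma adjusted p = 0.00588) and 1.29 in Tterm (adjusted p = 0.000309), and Slc1a4, a carrier of serine, alanine and other neutral amino acids, was higher by 3.21 and 2.91 at chr11:20281955-20283307 (limma adjusted p = 0.000176 and 1.97e-05).

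The next question was age within a subset. By limma 0 of 276 members were called in endogenous Tterm, 0 in endogenous Tprog and 0 for the difference of the age effects between these subsets, against 0.00836%, 0.166% and 0.0% of all peaks. Unadjusted p-values under 0.05 were found for 21, 38 and 30 members. edgeR called 1, 0 and 0, the first at a gene end of Slc3a2 (chr19:8705025-8705982), higher in aged Tterm and at a limma adjusted p of 0.14. Among the leading elements, that of Slc7a5 had 854 to 946 reads in aged and 750 to 1168 in young endogenous Tterm, so the ages overlapped. The ages did not overlap at the Slc2a1 element in Tprog (1649 to 1804 aged, 1248 to 1616 young) or at the Slc16a5 gene end in Tterm (56.8 to 87.7 aged, 96.0 to 142 young), although neither was called. With so few libraries some peaks separate by chance. The share of all peaks that did so was not counted, so no age difference is read from these elements.

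In OT-1 Tterm, limma and edgeR called 0 of 312 members for age, against 0.266% of all peaks by limma, and 22 had an unadjusted p under 0.05. Without the 3 libraries of batch 6, leaving 5 aged and 5 young libraries of batches 4 and 5, limma called 13 members, 7 higher and 6 lower in aged cells, and 3.8% of all peaks. The lowest adjusted p of these was at the Slc7a5 element, with 963 to 1260 reads (median 1086) in aged and 649 to 825 (median 732) in young libraries, a log2 difference of 0.59 ± 0.11 (limma adjusted p = 0.00315). These ranges did not overlap, but the batch 6 libraries lay the other way, at 593 in aged and 1671 and 765 in young cells. In the same fit the Slc38a10 element at chr11:120139001-120140158 was higher in aged cells (283 ± 21.7 against 198 ± 15.8 reads, limma adjusted p = 0.016). The Slc1a2 element at chr2:102732731-102734183 (37.6 ± 16.5 against 75.6 ± 12.0, limma adjusted p = 0.0136) and the Slc38a1 element (43.5 ± 6.07 against 65.0 ± 7.94, adjusted p = 0.0313) were lower. At this Slc1a2 element the young libraries of the fit held 66.2 to 88.8 reads and the aged 19.1 to 54.3. The lowest young OT-1 Tterm library given above for it is of batch 6 and lay within that aged range. At the Slc38a1 element the batch 6 libraries lay within the ranges of the others of their age. Batch 6 values of the Slc38a10 element are not given here.

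In naive cells 7 members were higher and 9 lower with age, 5.13% against 5.24% of all peaks (4.08% higher, 1.16% lower). None of the 16 held whichever library was left out, and the count was 1 or 5 without the first or second aged library and 2 without either young one. Those higher included the Slc2a1 element, at 1156 and 1139 reads in aged and 547 and 536 in young naive cells (1.08 ± 0.30, limma adjusted p = 0.0299), and an element of Slc2a3 within the gene, at 263 ± 14.2 against 78.4 ± 26.3 reads (1.77 ± 0.38, adjusted p = 0.00525). Among those lower was the Slc16a7 gene end, at 26.7 ± 2.63 against 161 ± 13.3 reads (-2.55 ± 0.60, limma adjusted p = 0.0111).

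Tadys cells, given for aged animals only, were set against both aged subsets. Against aged Tterm 7 members were higher and 12 lower (6.88%, against 6.3% of all peaks, 2.06% higher and 4.23% lower), and against aged Tprog 7 were higher and 10 lower (6.16% against 6.65%, 2.61% higher and 4.04% lower). The split depended on the fit: against aged Tterm it was 7 and 5 with equal library totals, 7 and 7 by edgeR and 4 and 4 with the replicate block, and against aged Tprog 9 and 8, 7 and 6, and 6 and 8. With 2 Tadys libraries these counts were unstable: without the first they were 3 and 5, and without the second the count against aged Tprog was 27. A single call of each comparison held whichever library was left out. These were the Slc16a5 gene end, higher than in aged Tterm by 1.78 ± 0.29 (limma adjusted p = 0.000831), and the Slc7a5 element, higher than in aged Tprog by 0.84 ± 0.19 (adjusted p = 0.0108). Tadys means lay between the aged Tprog and Tterm means at the elements of Slc2a1, Slc2a10, Slc7a5, Slc38a1, Slc1a2, Slc38a2, Slc43a1 and Slc16a11 given above, and slightly above the Tprog mean at the Slc16a5 gene end (246 ± 109 against 234 ± 3.44 reads). These elements were picked for their difference between Tterm and Tprog, which favours a place in between for any further group. The share of all peaks with Tadys in between was not counted. At the Slc38a1 element, for example, Tadys stood at 282 ± 80.9 reads, 0.89 ± 0.23 above aged Tterm (limma adjusted p = 0.021) and 1.15 ± 0.23 below aged Tprog (adjusted p = 0.00475), with the first call lost without Tadys 2, aged Tterm 2 or aged Tterm 3 and the second without Tadys 1.

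Genes of linked pathways were counted in the same fits. In young endogenous Tterm, peaks of glycolysis enzymes were 17 higher and 5 lower of 73 (30.1%, against 25.6% of all peaks). Peaks of amino acid response genes such as Atf4, Ddit4 and Asns were 13 higher and 3 lower of 44 (36.4%). Glutamine metabolism gave 4 higher and 6 lower of 55 (18.2%), and mTORC1 and amino acid sensing 6 and 10 of 80 (20%). Transporter regulators and chaperones such as Myc, Txnip and Bsg gave 23 and 21 of 132 (33.3%). In aged endogenous Tterm amino acid response peaks were 9 higher, at 2 genes, and 0 lower of 44 (20.5%, against 12.1% of all peaks). Glycolysis peaks were 6 and 1 of 73 (9.59%), and glutamine metabolism peaks 0 and 0 of 55. Peaks of mTORC1 and amino acid sensing were 5 and 5 of 80 (12.5%), and of transporter regulators and chaperones 12 and 13 of 132 (18.9%). In young OT-1 Tterm against Tprog amino acid response peaks were 9 higher and 0 lower of 49 (18.4%, against 7.63% of all peaks). Glycolysis peaks were 3 and 2 of 89 there (5.62%). Against naive cells amino acid response peaks were 23 and 3 (53.1%, against 40.3% of all peaks) and glycolysis peaks 34 and 8 (47.2%). The shares in brackets are of peaks called, and these lists were not tested as sets.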

How the data were processed

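The authors deposited signal values per peak and library, scaled by a size factor per library, in separate tables for 17 endogenous and 21 OT-1 and naive libraries. Per the submitters' processing notes, the build was mm10 and the tools were DESeq2 1.28.1, MACS2 2.1.1, Bowtie2 2.2.9, SAMtools 1.3.1 and Picard 2.8.0. Peak merging and read shifting are not given in the sources used here. Whole reads were recovered from 100% of values within 0.01 of a step and served for depth and edgeR. Depth was 4.64 to 87.6 megareads in peaks, and intervals on single counts were not needed because libraries were compared.

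Log2 of the value plus 1 entered limma 3.58.1 (R 4.3.3; all groups of a table, intensity trend, a term for batch 6 in the second table) over 71756 and 84091 peaks with a mean of 10 or more. Benjamini-Hochberg values over all of them under 0.05 count as called. edgeR 4.0.16 (quasi-likelihood) was an alternative. Gene-end peaks lie at most 1000 bp from either boundary of the gene body. The tests were tried on simulated counts without batch effects, which cannot show how batch 6 affects the calls. Named peaks were the called members of lowest adjusted p, up to 10 per direction and 2 per gene, and promoter peaks of 11 T cell carriers, of which the text uses a part. Members and lists were chosen with earlier results of these data known. Python 3.11.15, pandas 2.3.3 and matplotlib 3.10.9 made tables and plots.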

Additional observations from a re-analysis of the deposited data

Results flagged for a closer look

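For the named elements, the highest or lowest library of each group of 4 to 10 was compared with the others by Dixon's criterion, which chance alone meets in about 1 of 20 groups. Of 122 groups tested, 15 held a library set apart, 7 of them from batch 6, and 4 of those 7 in young OT-1 Tterm 6.

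In endogenous cells, young Tterm 3 held 583 normalized reads at the Slc38a6 element chr12:73323354-73325052, where the others held 395 to 433, and young Tterm 5 held 20.3 at chr12:73382296-73382768 (others 9.86 to 11.8). Young Tprog 3 stood at 702 at the Slc38a1 element (others 590 to 602) and young Tprog 2 at 953 at the Slc38a2 gene end (others 1239 to 1288). At the second Slc2a10 element, chr2:165540991-165541405, young Tterm 2 held 403 (others 283 to 310) and young Tprog 2 held 175 (others 84.5 to 95.8). Young Tprog 1 was at 331 at the Slc7a5 element (others 466 to 487).

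In OT-1 cells, young Tterm 6 was highest at the elements of Slc16a11 (1043, others 542 to 743), Slc43a2 (155, others 55.0 to 96.5), Slc2a1 (2900, others 1440 to 1942) and Slc7a5 (1671, others 649 to 825). Young Tterm 7 held 604 at the Slc38a6 element (others 235 to 338) and young Tterm 1 held 45.1 at the distal Slc16a1 element (others 8.78 to 22.6). Aged Tterm 6 was low at the Slc1a2 element chr2:102700914-102702053 (64.1, others 185 to 241) and at the Slc7a1 element chr5:148372998-148373967 (84.1, others 261 to 349). Why these libraries stood apart was not tested.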

How the results depend on the processing

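Alternatives were a pseudocount of 5, edgeR, equal library totals, no filter, a minimum mean of 30, a replicate block, genes within 10 kb, no batch term, fits without or within batch 6 and each library left out. Leaving out Slc7a6os and the fits within batch 6 were added after seeing the data. Counts of called members stayed within 1.5 times except as follows. Tadys against aged Tterm gave 12 with equal totals and 8 with the block (19 otherwise). Endogenous Tterm age gave 1 by edgeR, and OT-1 Tterm age 13 without batch 6. Aged OT-1 Tterm against Tprog gave 1 within batch 6, and could not be run without it. With the replicate block, young and aged OT-1 Tterm against Tprog gave 22 and 20 (36 and 46 otherwise). Same-numbered libraries had median correlations of -0.0309 (endogenous) and -0.00335 (OT-1 and naive) of their deviations, so the numbers were not taken to pair them. Of the calls at named elements, 174 held with the block and 25 were lost, against 189 and 10 by edgeR, 192 and 7 with equal totals, and 1159 and 210 over all runs with a library left out.

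With single libraries left out, counts ranged from 5 to 27 (Tadys against aged Tprog; 5 without Tadys 1, 27 without Tadys 2, 10 without aged Tprog 2), 3 to 16 (Tadys against aged Tterm; 3 without Tadys 1, 8, 9 and 5 without aged Tterm 1, 2 and 3), 21 to 35 (aged endogenous Tterm against Tprog; 21 without aged Tterm 3), 56 to 76 (young endogenous), 12 to 39 (young OT-1), 30 to 100 (aged OT-1), 45 to 62 (young Tprog against naive; 46 without Tprog 2), 78 to 142 (young Tterm against naive), 68 to 140 (aged Tterm against naive) and 1 to 5 (naive age). They ran from 0 to 1 for endogenous Tprog age (1 without aged Tprog 3) and OT-1 Tterm age (1 without aged Tterm 6 or young Tterm 6), and 0 to 0 for endogenous Tterm age and for age by subset.

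Among the named elements, signs turned only at promoter peaks that were not called. For Slc2a3, Tterm against Tprog became -0.11 (equal totals), -0.013 (edgeR) and, with libraries left out, -0.12 (without Tprog 1) to 0.14 in young endogenous cells, and -0.094 (equal totals), -0.10 (block) and -0.045 to 0.11 with libraries left out (-0.041 without Tprog 1, -0.045 without Tterm 3) in young OT-1 cells. For Slc16a1 it became -0.073 in endogenous cells (equal totals) and -0.00039 (without Tprog 2) to 0.47 in OT-1 cells, for Slc16a3 -0.10 in endogenous cells (equal totals), for Slc7a5 -0.035 in OT-1 cells (equal totals), and for Slc38a1 -0.062 (equal totals) and -0.037 (block) in OT-1 cells. Against naive cells Slc16a1 ran from -0.38 to 0.093 in Tprog (0.093 without Tprog 2) and became -0.12 (equal totals) and -0.0074 (block) in Tterm. The cause was not tested. Of the groups, 5 hold 2 libraries each, and what depth does to the calls was not tested.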
